A study of Mus musculus with 2 samples.

Results

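The genes described here encode the ligands, receptors, latency proteins and signal transducers of transforming growth factor β (TGF-β), measured by single-cell RNA-seq in mouse liver. They were chosen by symbol: the 10 rows named Tgfb1, Tgfb2, Tgfb3, Ltbp1, Lrrc32, Tgfbr1, Tgfbr2, Tgfbr3, Smad3 and Smad7 among the 32285 genes of both count matrices, and each symbol was found once. Their levels were compared across liver cell classes and between livers of control and N-LKO mice.

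TGF-β is secreted bound to its own propeptide, which keeps it latent, and this complex is tethered to matrix by latent TGF-β binding proteins such as Ltbp1 or to cell surfaces by Lrrc32 (GARP). Once released, the ligand binds Tgfbr2, which recruits and phosphorylates the kinase Tgfbr1, while Tgfbr3 (betaglycan) is a coreceptor that presents ligand, Tgfb2 above all. The active receptor phosphorylates Smad2 and Smad3, and Smad7, itself a target gene of the pathway, blocks the receptor. In the liver the pathway is best known for driving stellate cells to lay down collagen, for restraining hepatocyte growth and for limiting lymphocyte responses.

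The study asked how loss of NgBR (gene Nus1), a subunit of the cis-prenyltransferase that makes dolichol, in hepatocytes changes a fatty liver that develops tumors. The control group (WT) was 1 library from liver of male mice of genotype CTRL, and the N-LKO group was 1 library from liver plus tumor of male mice with a liver-specific NgBR knockout made with albumin-Cre and a loxP-flanked NgBR allele, on a C57BL/6 background. Both groups ate a lipid-rich diet for 16 weeks, which the sample titles call HFD and the treatment field calls WD. Hepatocytes and nonparenchymal cells were recombined after perfusion, and tumor cells were added in the N-LKO library only, so that genotype, tumor and library cannot be told apart.

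With 1 library in each group there was no replicate, so no test between groups could be made and every interval here covers counting error only. Droplets with at least 1000 unique molecular identifiers (UMIs) left 18431 WT and 19855 N-LKO cells with median depths of 1400 and 1455 UMIs. The libraries shared 121 cell barcodes, 0.657% of WT and 0.609% of N-LKO cells. The classes named from marker genes and a pair of clusters called by their leading genes, Dcn/Reln and F13a1/Ccr2, 10 in all, each had at least 200 cells per library and are compared below. The Dcn/Reln cluster raised all 12 stellate markers but also all 10 endothelial markers, and the F13a1/Ccr2 cluster was led by genes of monocytes (F13a1, Ccr2, Vcan, Chil3). Hepatocyte-like cells of the libraries lay mostly in different clusters: 8322 of 9938 WT cells in 1 cluster, and 2009 and 2050 of 4149 N-LKO cells in a pair of others. Levels are given in CPM, the UMIs of a gene per 1000000 UMIs of the class and library. Nus1 itself stood at 73.1 and 33.98 CPM in hepatocyte-like cells of WT and N-LKO, 89.3 and 93.3 CPM in endothelial-like cells and 83.6 and 89.3 CPM in macrophage-like cells. It was also lower in N-LKO in T/NK-like cells (80.1 and 46.2 CPM) and the F13a1/Ccr2 cluster (66.6 and 46.9 CPM). Lower levels from few UMIs were seen in plasmacytoid dendritic-like cells (84.5 and 64.8 CPM, 27 and 50 UMIs), cholangiocyte-like cells (51.0 and 40.9 CPM, 16 and 38 UMIs) and B-like cells (78.4 and 71.3 CPM, 33 and 83 UMIs). The Dcn/Reln cluster had 79.6 and 79.3 CPM and dendritic-like cells 56.2 and 59.4 CPM. No intervals are given for Nus1. The loxP sites flank the first exon, so reads from the 3′ end would lie outside the deleted part and these levels do not check the deletion.

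A member was called measured in a class at 5 CPM or more in either library, and called higher or lower in N-LKO where the ratio was at least 1.5-fold and its 95% counting interval left out equality. Of 82 measured pairs of member and class, 20 (24.4%) were higher in N-LKO, beside 13.1% of all gene and class pairs tested, and 3 (3.66%) were lower, beside 10.5%. Tgfbr1 gave 7 of the higher calls, Smad3 and Tgfb2 gave 4 each, and Tgfbr3, Tgfb1, Tgfb3 and Tgfbr2 gave the other 5. Smad7 gave 2 of the lower calls and Lrrc32 the other. By class the members' counts lay close to the background in several: none of 9 was called in dendritic-like cells (5.73% of genes higher and 6.11% lower), and 1 of 9 was higher in the F13a1/Ccr2 cluster (8.58%). No member was lower in plasmacytoid dendritic-like, B-like, cholangiocyte-like or hepatocyte-like cells, where 7.25%, 9.18%, 6.53% and 7.16% of genes were. Nor was any lower in macrophage-like cells, T/NK-like cells or the F13a1/Ccr2 cluster, where larger shares of genes were lower (12.9%, 13.9% and 13.1%).

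**Figure D1:**
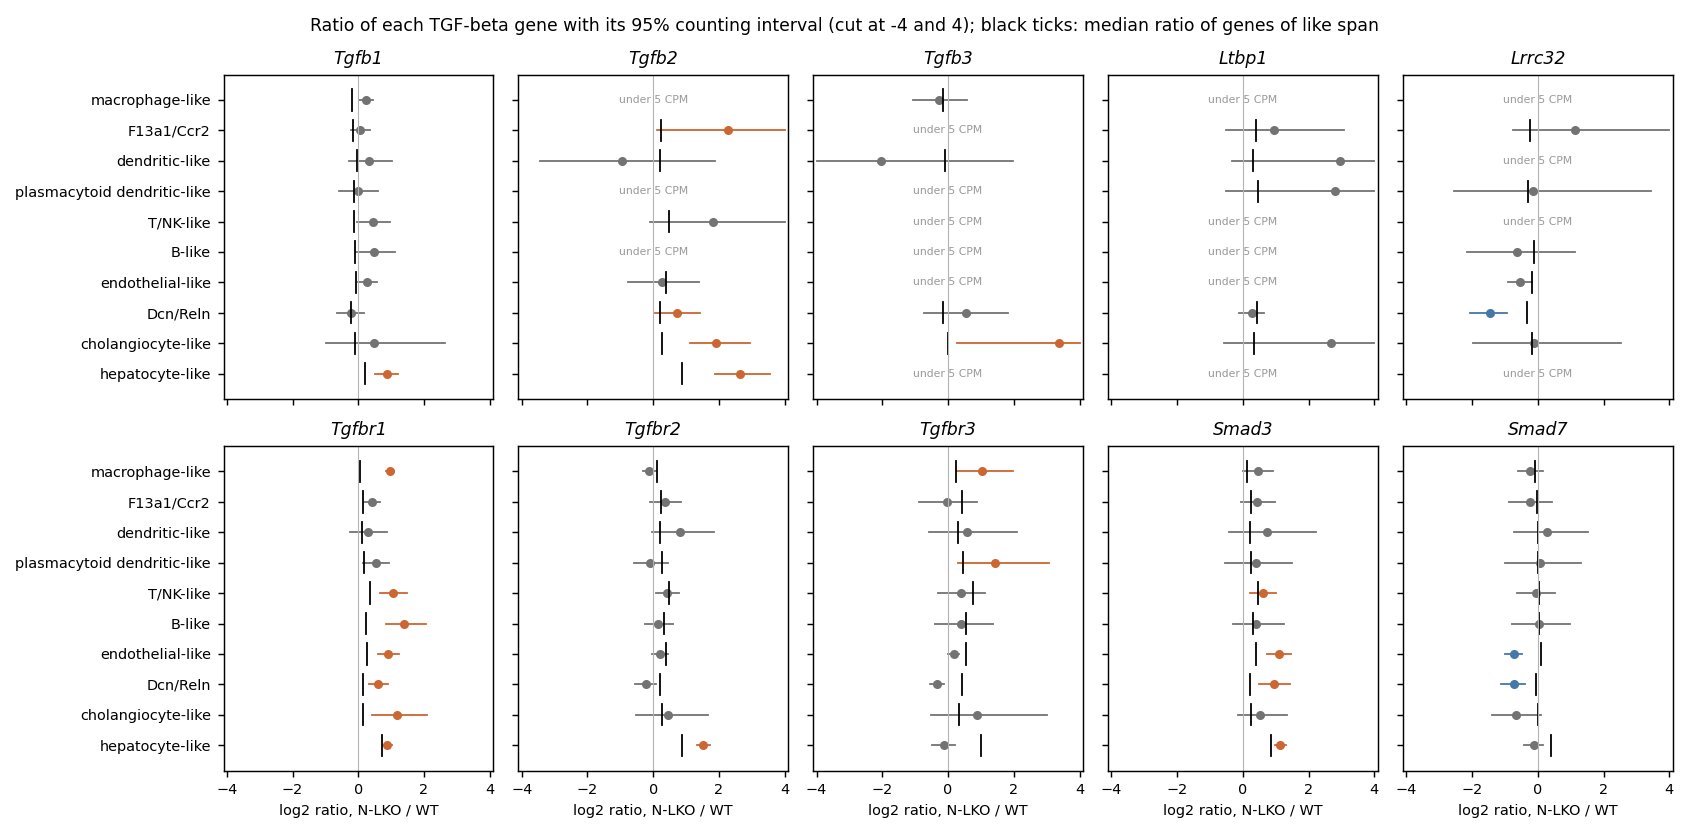
Log2 ratio of N-LKO to WT (x axis) for each of the 10 genes in the 8 named classes and the Dcn/Reln and F13a1/Ccr2 clusters (y axis); points are ratios, horizontal bars 95% counting intervals, orange points called higher, blue points called lower, and black ticks the median ratio of genes of like genomic span. Tgfbr1 lies to the right of its ticks in all 10, and Smad7 lies to the left of 0 in endothelial-like cells and the Dcn/Reln cluster.

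The count of calls has to be read against a general shift in N-LKO by genomic span, the distance from a gene's start to its end. In all 10 classes and clusters the median log2 ratio of the longest of 10 bins of genes was positive, from 0.24 in macrophage-like to 1.01 in hepatocyte-like cells, and that of the shortest bin was negative, from -0.12 to -0.63. The members run from 12.9 kb (Lrrc32) to 387 kb (Ltbp1), so the median ratio of genes of like span is given beside their own. Against genes of like span, 13 pairs stayed higher and 5 were lower.

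**Figure D2:**
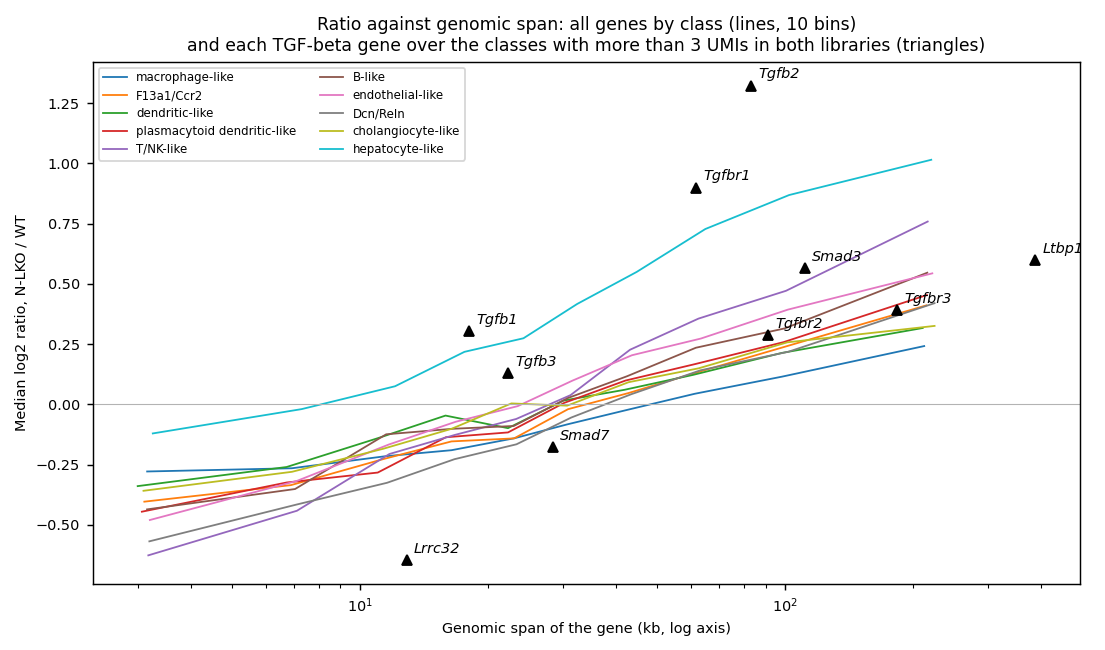
Median log2 ratio of N-LKO to WT (y axis) against genomic span in kb (x axis, log scale): lines join the medians of 10 bins of all genes tested in each class, and triangles are the medians of each TGF-β gene over the classes with more than 3 UMIs in both libraries. Every line ends higher than it starts, and the triangles of Tgfbr1 (0.90 at 61.7 kb) and Tgfb2 (1.32 at 83.2 kb) lie above all lines, while that of Smad7 (-0.18 at 28.4 kb) lies below them.

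Tgfb1, the ligand made by most immune cells, was highest in myeloid cells and was called in 1 class only, the hepatocyte-like cells. Its level was highest in the F13a1/Ccr2 cluster, at 139 CPM in WT (117 to 164, 140 UMIs) and 145 CPM in N-LKO (130.2 to 162, 332 UMIs). In N-LKO its interval stood apart from that of macrophage-like cells but overlapped that of plasmacytoid dendritic-like cells, and in WT it overlapped the next level. Macrophage-like cells had 102 and 119 CPM in WT and N-LKO (log2 ratio 0.22, interval 0.01 to 0.44), which did not reach 1.5-fold. Plasmacytoid dendritic-like cells had 109.6 and 109 CPM, which overlapped those of macrophage-like cells in both libraries. The middle of the order was held by dendritic-like cells (75.9 and 97.1 CPM in WT and N-LKO), B-like cells (73.7 and 104 CPM), the Dcn/Reln cluster (78.99 and 67.1 CPM) and endothelial-like cells (64.3 and 77.7 CPM), whose intervals overlapped from each to the next. T/NK-like cells had 40.4 CPM in WT, below and apart from endothelial-like cells, and 55.3 CPM in N-LKO, which overlapped the Dcn/Reln cluster.

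The lowest Tgfb1 levels were in epithelial cells. Cholangiocyte-like cells had 12.8 CPM in WT from 4 UMIs and 19.4 CPM in N-LKO. Hepatocyte-like cells had 7.99 CPM (6.69 to 9.46) in WT and 14.5 CPM (12.1 to 17.3) in N-LKO (log2 ratio 0.86, interval 0.50 to 1.22). That pair was called, but both values stood near what free RNA alone would give, 10.03 and 12.5 CPM in WT and N-LKO. The level of free RNA was taken from barcodes under 500 UMIs and scaled by the marker RNA of other cell types in the class.

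**Figure D3:**
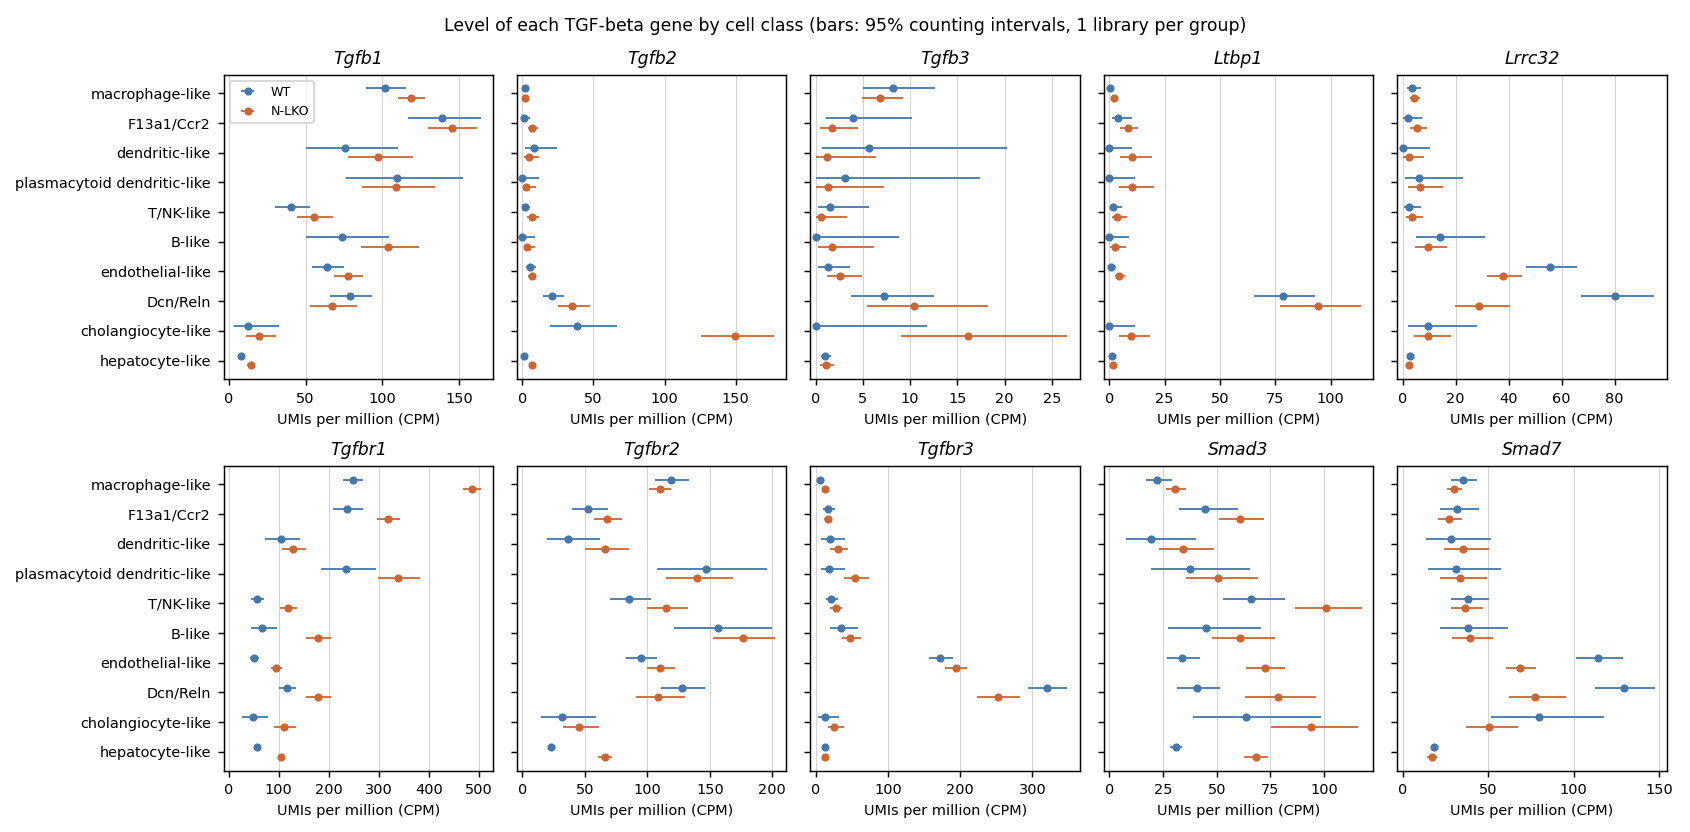
Level of each of the 10 genes in CPM (x axis, linear, a scale of its own per gene) in the 8 named classes and 2 clusters (y axis), WT in blue and N-LKO in orange; bars are 95% counting intervals of 1 library each. Tgfb1 and Tgfbr1 peak in the macrophage-like, F13a1/Ccr2 and plasmacytoid dendritic-like rows, Ltbp1 in the Dcn/Reln row, Tgfbr3 in the Dcn/Reln and endothelial-like rows and Tgfb2 in the cholangiocyte-like row.

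Tgfb2, a ligand that depends on betaglycan for strong receptor binding, was highest in cholangiocyte-like cells. There it had 38.3 CPM (19.8 to 66.9, 12 UMIs) in WT and 149.7 CPM (126 to 177, 139 UMIs) in N-LKO (log2 ratio 1.91, interval 1.12 to 2.95) against 0.26 for genes of like span. The N-LKO level stood apart from that of every other class and cluster compared, while in WT its interval overlapped that of the Dcn/Reln cluster. Among cholangiocyte-like cells thinned to 1000 UMIs, 2 of 201 WT cells (0.995%, exact interval 0.121 to 3.55%) and 62 of 504 N-LKO cells (12.3%, 9.56 to 15.5%) held a Tgfb2 UMI, and 5.47% and 20.8% did before thinning. The WT share was under the limit of 1.49% that a count of 0 allows and its interval takes in the 1.88% of Dcn/Reln droplets (17 of 904) and the share of macrophage-like cells, so that no order of classes can be read from the thinned WT cells. Macrophage-like cells, taken as a class without the gene, gave 0.18% and 0.167% at median depths of 1382 and 1495 UMIs, against 1379 and 1613 UMIs in cholangiocyte-like cells. The summed level of 8 cholangiocyte markers in this class was 8102 and 7440 CPM in WT and N-LKO, with no marker at 0.

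Next for Tgfb2 among those compared was the Dcn/Reln cluster, with 20.9 and 34.8 CPM in WT and N-LKO. Its log2 ratio was 0.73 (interval 0.04 to 1.43) against 0.22 for like span, relative to which the call was lost. It was lost too in droplets of this cluster with few endothelial and macrophage UMIs (defined below with Lrrc32), at 45.1 and 47.8 CPM (0.06, -1.37 to 1.60). In hepatocyte-like cells Tgfb2 had 17 UMIs in WT and 56 in N-LKO, or 1.01 and 6.495 CPM, and was called higher at a log2 ratio of 2.65 (1.88 to 3.56). The WT value was close to the 0.993 CPM expected of free RNA, whereas the N-LKO value was above its 1.67 CPM. The 8 cholangiocyte markers moved with it, at a summed 153 and 502 CPM in hepatocyte-like cells with none at 0, and their part in the call was not tested. In the F13a1/Ccr2 cluster the call rested on 1 UMI in WT and 16 in N-LKO (log2 ratio 2.28, interval 0.13 to 8.21). Tgfb2 was not measured in macrophage-like, B-like or plasmacytoid dendritic-like cells.

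Tgfb3 was scarce. It passed 5 CPM in 4 of the 10 classes and clusters: macrophage-like cells (8.16 CPM in WT and 6.81 in N-LKO), the Dcn/Reln cluster (7.18 and 10.5), dendritic-like cells (2 UMIs and 1 UMI) and cholangiocyte-like cells. In the last it had no UMI in WT and 15 UMIs, 16.2 CPM (9.04 to 26.6), in N-LKO. Against the limit of 3 counts that a count of 0 allows, 9.57 CPM, the N-LKO level was at least 1.69-fold higher. Droplets with no macrophage-marker UMI held 0 and 6 Tgfb3 UMIs, and there the call was lost. Of the 3 ligands, Tgfb2 and Tgfb3 were thus called higher in cholangiocyte-like cells, where 3 of the 10 members were called higher beside 6.34% of genes.

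Ltbp1, which anchors the latent complex in matrix, stood highest in the Dcn/Reln cluster, apart from all 9 others in both libraries. It had 78.4 CPM there (65.5 to 93.02, 131 UMIs) in WT and 94.1 CPM (77.2 to 114, 108 UMIs) in N-LKO, and no more than 10.4 CPM in the other 9 compared. The log2 ratio of 0.26 (-0.12 to 0.64) lay below the 0.42 of genes of like span, and no difference was detectable at this depth. In WT this cluster held 131 of the 176 Ltbp1 UMIs of all kept cells (74.4%), and in N-LKO 108 of 251 (43.0%). Dendritic-like, plasmacytoid dendritic-like and cholangiocyte-like cells had none in WT and 9, 8 and 9 UMIs in N-LKO, at least 1.22-fold, 1.103-fold and 1.01-fold higher, and none of the 3 was called.

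Lrrc32, which holds latent TGF-β at the cell surface, was read in endothelial-like cells and the Dcn/Reln cluster and was lower in N-LKO in both. Endothelial-like cells had 55.5 CPM (46.5 to 65.8, 133 UMIs) in WT and 37.99 CPM (31.8 to 45.1, 132 UMIs) in N-LKO. The log2 ratio of -0.55 (interval -0.91 to -0.19) against -0.17 for like span left out 0 but missed 1.5-fold. The 10 endothelial markers of this class summed to 7435 and 5236 CPM in WT and N-LKO, and their part in the ratio was not tested. The Dcn/Reln cluster had 80.2 CPM (67.2 to 94.97, 134 UMIs) and 28.7 CPM (19.8 to 40.4, 33 UMIs), a log2 ratio of -1.46 (-2.08 to -0.92) against -0.32 for like span. In the other 8 compared it did not pass 14.3 CPM, and in T/NK-like cells, where regulatory T cells carry GARP, it had 3 UMIs in WT and 6 in N-LKO.

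Markers of endothelial cells moved with Lrrc32 in the Dcn/Reln cluster. The summed level of the 10 endothelial markers was 3857 and 1925 CPM in WT and N-LKO, that of 12 stellate markers 10451 and 6040 CPM, and that of 12 macrophage markers 3868 and 3146 CPM, with no marker at 0. Droplets with 3 or more endothelial-marker UMIs made up 70.0% of the 904 in WT and 41.6% of the 647 in N-LKO. Limiting the cluster to droplets with at least 3 stellate-marker UMIs and at most 1 UMI each of endothelial and macrophage markers left 135 and 152 droplets, of which 64 and 82 held 1 such UMI and lay at the limit. In these Lrrc32 had 107 CPM (64.5 to 167, 19 UMIs) in WT and 17.4 CPM (4.74 to 44.5, 4 UMIs) in N-LKO (log2 ratio -2.49, interval -4.64 to -1.03). Stellate markers differed in these droplets as well, with Lrat at 654 and 174 CPM, Reln at 3125 and 1543 CPM and Dcn at 4868 and 2430 CPM, and their part in the Lrrc32 ratio was not tested. Of all droplets of the cluster, 17 in WT and 143 in N-LKO held under 3 stellate-marker UMIs. The limit was set after the values were seen.

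**Figure D4:**
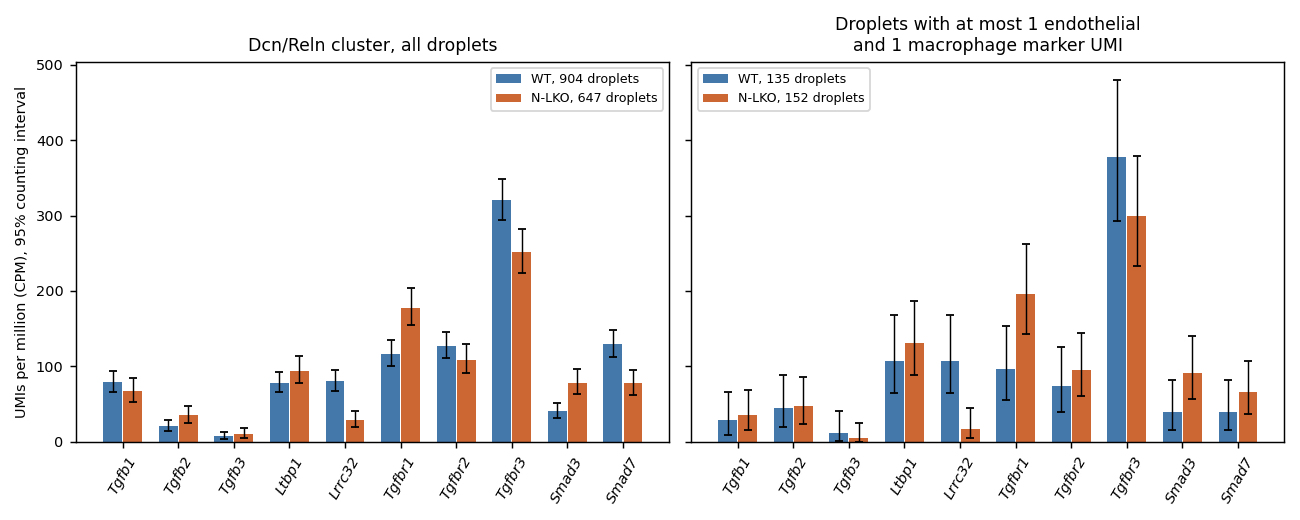
Level in CPM of each of the 10 genes (y axis) in the Dcn/Reln cluster, in all droplets (left) and in droplets with at least 3 stellate-marker UMIs and at most 1 UMI each of endothelial and macrophage markers (right), WT in blue and N-LKO in orange with 95% counting intervals. Lrrc32 is lower and Tgfbr1 higher in N-LKO in both panels, while the WT bar of Smad7 drops from 129 to 39.5 CPM on the right.

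Tgfbr1, the type I receptor kinase, was higher in N-LKO in all 10 classes and clusters by ratio, and in 7 by the call. Macrophage-like cells held the highest level: 248 CPM (229 to 269, 609 UMIs) in WT and 487 CPM (469 to 505, 2860 UMIs) in N-LKO (log2 ratio 0.97, interval 0.84 to 1.10) against 0.04 for genes of like span. In WT the F13a1/Ccr2 cluster (237 CPM) and plasmacytoid dendritic-like cells (235 CPM) overlapped that level. In N-LKO they had 318 and 339 CPM, with intervals below that of macrophage-like cells and log2 ratios of 0.43 and 0.52 that missed 1.5-fold. Thinned to 1000 UMIs, 19.7% (17.8 to 21.7%) of 1663 WT and 34.4% (32.8 to 35.9%) of 3585 N-LKO macrophage-like cells held a Tgfbr1 UMI (26.5% and 46.2% unthinned). In macrophage-like cells 2 of 7 measured members were higher, beside 8.55% of genes.

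Lymphocytes, endothelial and biliary cells had less Tgfbr1 in WT, and each was called higher in N-LKO. B-like cells had 66.5 CPM (28 UMIs) in WT and 179 CPM (208 UMIs) in N-LKO, the widest ratio at 1.40 (0.85 to 2.05). T/NK-like cells had 56.8 and 118 CPM, a log2 ratio of 1.05 (0.67 to 1.47). Cholangiocyte-like cells had 47.8 and 111 CPM (1.17, 0.42 to 2.10), and endothelial-like cells had 50.1 and 94.7 CPM (0.91, 0.61 to 1.23). In the Dcn/Reln cluster it stood at 117 and 178 CPM, a log2 ratio of 0.61 (0.32 to 0.90) close to the limit of the call, and in its limited droplets at 95.9 and 196 CPM. That call was lost relative to genes of like span (0.47), at a minimum of 500 UMIs (0.57), with no mitochondrial limit (0.49) and with the members kept among the variable genes for clustering (0.57). Dendritic-like cells, at 104 and 128 CPM, had the narrowest ratio, 0.29 (-0.25 to 0.88), and were not called. The shares of genes called higher were 9.46% in B-like, 18.1% in T/NK-like, 18.6% in endothelial-like cells and 11.8% in the Dcn/Reln cluster.

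Macrophage markers moved with Tgfbr1 in these classes, other than the Dcn/Reln cluster, and their part in the ratios was not tested. The 12 markers include Fn1, listed below among the response genes, which stood at 125 and 331 CPM in WT and N-LKO endothelial-like cells. The summed level of 12 macrophage markers was 621 and 1070 CPM in WT and N-LKO T/NK-like cells, 1607 and 2554 CPM in B-like cells, 524 and 983 CPM in endothelial-like cells, 894 and 1762 CPM in dendritic-like cells and 663 and 884 CPM in cholangiocyte-like cells. Among droplets with no macrophage-marker UMI, a limit added after the values were seen, Tgfbr1 stood at 54.98 and 115 CPM in T/NK-like cells, a log2 ratio of 1.06. It stood at 53.4 and 105 CPM in B-like cells (0.94) and at 51.6 and 78.7 CPM in endothelial-like cells (0.61). All 3 kept their call there. Subtracting free RNA, of which Tgfbr1 made up 23.1 and 80.5 CPM in WT and N-LKO, ended the call in endothelial-like and cholangiocyte-like cells, at log2 ratios of 0.52 and 0.84.

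The promoters of Tgfbr1 and Smad3 are shown because these 2 genes were higher in N-LKO by ratio in all 10 classes and clusters. Each is a RefSeq window from 250 bases before to 50 bases after the gene's start (GRCm38.p6), written 5′ to 3′ on the gene's strand: chr4:47352972-47353271, plus strand, for Tgfbr1 and chr9:63757945-63758244, minus strand, for Smad3. Tgfbr1 had 2 such windows, of which only the one nearest the annotated gene start is shown and searched, and Smad3 had 1. Capitals mark GGGCGG, the GC box, and GGCGCC, a GC-rich SMAD site, on either strand.
Tgfbr1: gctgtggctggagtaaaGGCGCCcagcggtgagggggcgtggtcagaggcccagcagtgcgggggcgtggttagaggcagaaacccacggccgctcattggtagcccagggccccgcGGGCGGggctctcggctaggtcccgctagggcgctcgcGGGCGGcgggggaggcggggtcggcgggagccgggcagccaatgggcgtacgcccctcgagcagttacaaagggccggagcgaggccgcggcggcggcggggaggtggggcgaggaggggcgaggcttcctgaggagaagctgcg
Smad3: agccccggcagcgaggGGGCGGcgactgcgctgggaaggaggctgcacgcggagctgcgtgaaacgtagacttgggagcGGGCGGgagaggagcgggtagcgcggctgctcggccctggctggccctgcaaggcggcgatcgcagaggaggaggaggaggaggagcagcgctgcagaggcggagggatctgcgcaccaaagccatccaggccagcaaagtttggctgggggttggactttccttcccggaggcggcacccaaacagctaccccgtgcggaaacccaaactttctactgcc
GGGCGG matched 2 times in each window, and 35.7% of all 32851 promoter windows held it. GGCGCC matched once in the Tgfbr1 window and not in that of Smad3, and 11.9% of windows held it. The SMAD half-site CAGAC was in neither window and in 49.6% of all. GC content was 74.7% and 67.7% against a median of 52.7%, and the matches describe these letters only. Tgfbr1 spans chr4:47353222-47414931 and Smad3 chr9:63646767-63757994 (GRCm38); the count matrices carry no coordinates, and the submitters' processing notes name mm9.

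Tgfbr2, the ligand-binding type II receptor, was called in 1 of the 10 classes and clusters, against 7 for its partner Tgfbr1, a contrast that was not tested. B-like cells had 157 and 176 CPM in WT and N-LKO, plasmacytoid dendritic-like cells 147 and 139.9 CPM, and macrophage-like cells 119 CPM (106 to 134) and 109.8 CPM (101 to 119). In macrophage-like cells the log2 ratio of -0.12 (-0.32 to 0.09) lay on the other side of 0 from that of Tgfbr1. Endothelial-like cells had 94.8 and 110.2 CPM, T/NK-like cells 85.5 and 115 CPM and the Dcn/Reln cluster 127 and 109 CPM. Ranked by level, the intervals of neighbours among these overlapped in both libraries. The F13a1/Ccr2 cluster (52.7 and 67.9 CPM), dendritic-like cells (36.5 and 66.3 CPM) and cholangiocyte-like cells (31.9 and 45.2 CPM) were lower in both. The only call was in hepatocyte-like cells, at 22.8 CPM (20.6 to 25.2) in WT and 65.8 CPM (60.5 to 71.4) in N-LKO (log2 ratio 1.53, interval 1.34 to 1.72) against 0.87 for like span.

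Among the classes and clusters compared, Tgfbr3, the betaglycan coreceptor, was highest in the Dcn/Reln cluster and endothelial-like cells. Each stood apart from the next in both libraries. The Dcn/Reln cluster had 320.1 CPM (294 to 348, 535 UMIs) in WT and 252 CPM (224 to 283, 289 UMIs) in N-LKO. Its log2 ratio was -0.35 (-0.56 to -0.14), short of 1.5-fold as it stood, and -0.77 against genes of like span, where it passed. Endothelial-like cells had 172 and 194 CPM, a log2 ratio of 0.17 (-0.01 to 0.35). The other classes and clusters compared lay between 6.12 and 54.4 CPM. Macrophage-like cells were called higher from 15 UMIs in WT and 76 in N-LKO (6.12 and 12.9 CPM), beside 4.92 and 10.2 CPM expected of free RNA. At a minimum of 500 UMIs the ratio turned to -0.033, and with mixed clusters counted in their highest-scoring class it was 0.02. Plasmacytoid dendritic-like cells were called higher from 6 and 42 UMIs (18.8 and 54.4 CPM), where 1 of 8 measured members was higher beside 6.12% of genes. Relative to genes of like span their log2 ratio was 0.98 and the call was lost. Hepatocyte-like cells, at 13.3 and 12.2 CPM, were at the level of free RNA (11.7 and 14.6 CPM).

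Smad3, which carries the signal to the nucleus, was spread over all classes and higher by ratio in N-LKO in each. T/NK-like cells had 66.1 CPM (52.8 to 81.7) in WT and 101 CPM (86.2 to 117) in N-LKO, the highest level in both libraries, and overlapped cholangiocyte-like cells (63.8 and 93.7 CPM). They also overlapped B-like cells, the F13a1/Ccr2 cluster and plasmacytoid dendritic-like cells in WT, and the Dcn/Reln cluster in N-LKO. The T/NK-like log2 ratio of 0.61 (0.23 to 1.00) was close to the 0.47 of genes of like span, and the call was lost under 6 of 15 alternatives, with ratios down to 0.14. Endothelial-like cells gave a wider one: 33.8 CPM (26.9 to 42.03, 81 UMIs) and 72.2 CPM (63.6 to 81.8, 251 UMIs), a log2 ratio of 1.09 (0.73 to 1.47) against 0.39. Without macrophage-marker UMIs endothelial-like droplets had 35.8 and 68.8 CPM. In the Dcn/Reln cluster it stood at 40.7 and 78.4 CPM, a log2 ratio of 0.94 (0.48 to 1.42) against 0.22. In the limited droplets of that cluster it stood at 39.5 and 91.3 CPM from 7 and 21 UMIs. There the log2 ratio was 1.14 with an interval of -0.08 to 2.69, and the call was lost. Macrophage-like cells, at 22.4 and 30.8 CPM, had a log2 ratio of 0.45 (0.01 to 0.92) and were not called.

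Smad7, the inhibitory SMAD, had its highest levels in the Dcn/Reln cluster (all droplets) and endothelial-like cells, and it was lower in N-LKO in both. Their intervals overlapped each other and that of cholangiocyte-like cells in both libraries. Endothelial-like cells had 114 CPM (101 to 129, 274 UMIs) in WT and 68.8 CPM (60.3 to 78.1, 239 UMIs) in N-LKO (log2 ratio -0.73, interval -0.99 to -0.48) against 0.10 for like span, and 1 of 8 measured members was lower beside 14.7% of genes. The 10 endothelial markers of this class summed to 7435 and 5236 CPM in WT and N-LKO. The Dcn/Reln cluster had 129 CPM (113 to 148) and 77.5 CPM (62.3 to 95.4), a log2 ratio of -0.73 (-1.11 to -0.37), and 2 of 10 members were lower there beside 14.3% of genes. In the limited droplets the ratio had the other sign with an interval that took in 0: Smad7 had 39.5 CPM (15.9 to 81.4, 7 UMIs) in WT and 65.2 CPM (36.5 to 108, 15 UMIs) in N-LKO (log2 ratio 0.67, interval -0.66 to 2.26). Cholangiocyte-like cells had 79.7 and 50.6 CPM (-0.67, -1.39 to 0.11). The other classes and clusters compared lay between 16.9 and 39.5 CPM with log2 ratios from -0.24 to 0.29, none of them called.

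In hepatocyte-like cells 5 of 7 measured members were called higher, but so were 40.6% of all genes, and the 2 libraries gave different kinds of hepatocyte-like cluster. Over the class, Tgfbr1 had 56.6 and 104 CPM (0.88, 0.75 to 1.02) and Smad3 30.9 and 68.2 CPM (1.14, 0.97 to 1.31), against 0.73 and 0.87 for genes of like span. Free RNA was estimated at 81.1% of the UMIs in WT and 46.2% in N-LKO, and with it subtracted the Tgfbr1 ratio changed sign to -0.24. The main WT cluster, number 0, had 8757 CPM of Malat1, a nuclear RNA, and the 2 main N-LKO clusters, numbers 5 and 6, had 4612 and 19959.5 CPM. Cluster 6 raised 3 of 10 hepatocyte markers and was named at a score of 0.21, just above the limit of 0.2. Tgfbr1 had 56.9 CPM (53.1 to 60.9) in WT cluster 0, 269 UMIs or 53.04 to 67.6 CPM in N-LKO cluster 5 and 158 CPM (146 to 170.5) in N-LKO cluster 6. A small WT cluster also rich in Malat1, number 18 with 35617 CPM of it and 326 cells, had 142 CPM (115 to 174) of Tgfbr1, so that Malat1-rich clusters of the 2 libraries overlapped, as did clusters 0 and 5. Smad3 followed the same order, with 29.96, 33.7, 109 and 83.99 CPM in clusters 0, 5, 6 and 18.

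Tgfbr2 departed from that order. It had 24.9 CPM (22.4 to 27.6) in WT cluster 0, 33.9 CPM (28.7 to 39.7) in N-LKO cluster 5, 102 CPM (92.5 to 113) in N-LKO cluster 6 and 10 UMIs or 7.19 to 27.6 CPM in WT cluster 18, so that cluster 5 lay above cluster 0 and cluster 6 above cluster 18 with intervals apart. Over clusters neither rich nor poor in Malat1, the log2 ratios were 0.06 for Tgfbr1, 0.15 for Smad3 and 0.49 for Tgfbr2, none of which reached 1.5-fold, while Tgfb2 kept its call at 2.30.

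**Figure D5:**
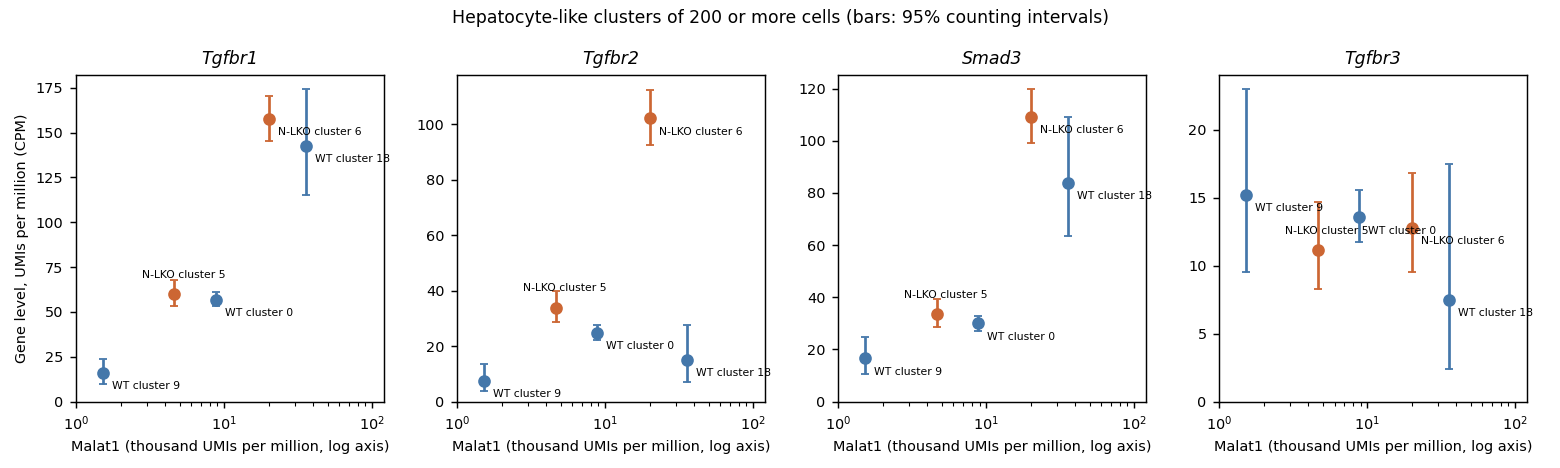
Levels of Tgfbr1, Tgfbr2, Smad3 and Tgfbr3 in CPM (y axis) against Malat1 in 1000 CPM (x axis, log scale) in hepatocyte-like clusters of 200 or more cells, WT in blue and N-LKO in orange, with 95% counting intervals. Tgfbr1 and Smad3 are high in the Malat1-rich cluster of each library, and Tgfbr2 only in that of N-LKO (102 CPM).

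The genes whose levels followed a member most closely over the 20 profiles (10 classes and clusters in both libraries, which share free RNA and depth) were ranked by Pearson's r of log2(CPM + 1). Tgfb1 was followed by Nrros, which tethers latent TGF-β on myeloid cells (r = 0.97), and by Msn and Ostf1 (0.95 each). Tgfb2 was followed by Efemp1, Zc2hc1a and Gata6 (0.92, 0.90 and 0.90), and Ltbp1 by Antxr1, Lama2 and Adamtsl2 (0.92, 0.92 and 0.91). Lrrc32 was followed by Btnl9, Fgd5 and the sinusoidal scavenger receptor Stab2 (0.94, 0.94 and 0.93). Tgfbr1 was followed by Ctsz, Rnf149 and Lair1 (0.95, 0.92 and 0.92), Tgfbr2 by Pml, Trim26 and Rcsd1 (0.90, 0.88 and 0.87) and Tgfbr3 by Erg, Tshz3 and Itga1 (0.95, 0.95 and 0.94). Smad3 was followed by Spata13, Fam120c and Ip6k2 (0.87 each) and Smad7 by Rcn1 and Vezf1 (0.92 and 0.91). For Tgfb3 the closest were Plxdc2, 2510039O18Rik and Ccl2, at 0.72, 0.72 and 0.71.

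Partners in latency and activation were higher or not called, and none was lower in any class. In macrophage-like cells 3 of 9 measured were higher, beside 8.55% of genes: Ltbp3 (2.04 and 11.1 CPM in WT and N-LKO), thrombospondin 1 or Thbs1, an activator of latent TGF-β (3.67 and 16.5 CPM), and Emilin1 (5.303 and 10.04 CPM). In endothelial-like cells 3 of 9 were higher, beside 18.6% of genes, namely Thbs1 (2 and 32 UMIs), the protease Bmp1 (10.02 and 21.6 CPM) and integrin αv or Itgav (33.4 and 66.2 CPM). In the Dcn/Reln cluster 2 of 11 were higher, beside 11.8% of genes: Bmp1 (11.97 and 29.6 CPM) and Itgb8, the partner of αv that frees latent ligand (8.38 and 20.04 CPM). In hepatocyte-like cells Bmp1 (29.8 and 50.6 CPM) and Itgav (38.9 and 65.2 CPM) were higher, 2 of 6 measured, a share below the 40.6% of all genes. The median log2 ratio of the list was 0.22 in macrophage-like, 0.42 in endothelial-like and 0.37 in hepatocyte-like cells and 0.13 in the Dcn/Reln cluster, against -0.07, 0.09, 0.39 and -0.07 over all genes tested.

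Among receptor partners the lower calls were 1 in endothelial-like cells and 2 in the Dcn/Reln cluster. Endoglin (Eng), a coreceptor of endothelial and stellate cells, stood in endothelial-like cells at 416 and 272 CPM (-0.61, -0.74 to -0.48), and 326 and 160.3 CPM in the Dcn/Reln cluster (-1.02, -1.27 to -0.78). The summed endothelial markers moved with it, at 7435 and 5236 CPM in the first and 3857 and 1925 CPM in the second, and their part was not tested. Of 15 measured partners 1 was lower and 0 higher by the counting interval in endothelial-like cells, beside 14.7% and 18.6% of genes, and in the Dcn/Reln cluster 2 of 15 were lower beside 14.3%. In the Dcn/Reln cluster Bambi, a decoy receptor, was lower as well, at 44.3 CPM (74 UMIs) and 8.71 CPM (10 UMIs), a log2 ratio of -2.29 (-3.46 to -1.39). Stellate markers of this cluster summed to 10451 and 6040 CPM in WT and N-LKO, and their part in the Bambi ratio was not tested. In macrophage-like cells Pmepa1 (3.26 and 10.6 CPM) and Eng (12.2 and 20.1 CPM) were higher, 2 of 14 beside 8.55% of genes. In hepatocyte-like cells 8 of 13 were higher, beside 40.6% of genes, among them the ubiquitin ligases Smurf1 (13.3 and 34.2 CPM) and Smurf2 (82.5 and 156 CPM) and Pmepa1 (3.46 and 7.19 CPM). The median log2 ratio of this list was 0.13, 0.11, -0.08 and 0.64 in macrophage-like, endothelial-like, Dcn/Reln and hepatocyte-like cells, against -0.07, 0.09, -0.07 and 0.39 over all genes tested.

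Genes known to respond to TGF-β were called in both directions in the Dcn/Reln cluster. There 4 of 16 were higher, beside 11.8% of genes, among them Lox, which crosslinks collagen (2.39 and 11.3 CPM, 4 and 13 UMIs), fibronectin or Fn1 (237 and 460.0 CPM) and the cell cycle inhibitor Cdkn1a (31.7 and 54.9 CPM). Of the 3 lower, beside 14.3% of genes, Tgfbi had 509.8 and 274 CPM, periostin or Postn 162 and 93.2 CPM and Junb 247 and 146 CPM. The summed stellate markers of the cluster were lower too, at 10451 and 6040 CPM in WT and N-LKO, and their part in these calls was not tested. The list's median log2 ratio there was -0.12, against -0.07 for all genes. In macrophage-like cells 6 of 10 were higher, beside 8.55% of genes, and the median was 1.07 against -0.07, but Col3a1 (3 and 42 UMIs, 7.15 CPM in N-LKO against 6.66 expected of free RNA) and Ccn2 (6.81 against 5.02 CPM) were near free RNA. Id1, a target of the related BMP branch, was lower at 75.1 and 32.5 CPM.

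In endothelial-like cells 4 of 12 response genes were higher, beside 18.6% of genes, with Cdkn1a at 37.6 and 99.9 CPM and Fn1 at 125 and 331 CPM beside 114 and 187 CPM expected of free RNA. Postn was called lower from 12 and 6 UMIs. In hepatocyte-like cells 4 of 9 were higher, a share near the 40.6% of all genes, with Cdkn1a at 18.4 and 104 CPM in WT and N-LKO (log2 ratio 2.51, interval 2.32 to 2.70) and Col4a1, a basement membrane collagen, at 15.3 and 39.7 CPM. The medians of this list were 0.41 in endothelial-like and 0.52 in hepatocyte-like cells, against 0.09 and 0.39 over all genes tested.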

How the data were processed

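Cells of 1 WT and 1 N-LKO library were profiled by 10x 3′ sequencing. The authors deposited gene by barcode matrices of UMI counts from Cell Ranger (7.1.0 in the file headers), not normalized; the processing notes name mm9 and Seurat. The matrices hold 100171 WT and 90147 N-LKO barcodes with 85522287 and 87575064 UMIs, so the precision of each value is set by its UMI count.

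Barcodes with at least 1000 UMIs, 400 genes and at most 30% mitochondrial UMIs were kept. Scrublet scores above 0.25 removed 1727 (8.57%) WT and 2359 (10.6%) N-LKO barcodes as doublets. The rest were clustered (scanpy 1.11.5, leidenalg 0.10.2: 2000 variable genes without the members, 30 components, 20 neighbours, resolution 0.3) into 23 clusters and named from fixed markers; mixed clusters other than Dcn/Reln were left out of the comparisons. UMIs were summed per class and library. Intervals are exact Poisson (levels), exact conditional binomial (ratios, 0.5 UMI added) and Clopper-Pearson (shares), all 95%, and cover counting error only. Free RNA, genomic span (GENCODE M21, 32235 of 32285 genes matched by identifier) and 15 alternatives plus 2 added after seeing the data were examined. The ratio script was tested on simulated counts.

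Each member was examined in every class and cluster compared, and not all of these values are given in the text. From each of 3 pathway lists up to 3 called genes per direction with the widest ratios were named in 4 classes, and for each member the 3 genes of most similar profile; a few genes that these rules name are not reported here. The members and lists were chosen with earlier results of these data known.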

Additional observations from a re-analysis of the deposited data

How the results depend on the processing

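No paired analysis was possible because each group had 1 library, and for the same reason no library could be left out. Each count of calls and each ratio was recomputed under 15 alternatives and 2 chosen after seeing the data, which gave 1206 values, of which 1138 kept their direction and moved by less than the counting interval, 65 moved further and 3 changed sign. The 20 higher and 3 lower calls became 3 and 0 of 7 pairs at a minimum of 2000 UMIs per barcode and 8 and 0 of 17 at a mitochondrial limit of 10%, since most classes then held under 200 cells and gave no value. Relative to genes of like span they became 13 and 5, and with free RNA subtracted the lower calls became 6. The ratios that changed sign were Tgfbr1 in hepatocyte-like cells (log2 -0.24 with free RNA subtracted), Tgfbr3 in macrophage-like cells (-0.033 at a minimum of 500 UMIs) and Smad7 in the Dcn/Reln cluster (0.67 in the limited droplets, an alternative added after seeing the data); the cause was not tested. Tgfbr1 in macrophage-like, T/NK-like and B-like cells, Tgfb2 in cholangiocyte-like and hepatocyte-like cells, Smad3 and Smad7 in endothelial-like cells and Lrrc32 in the Dcn/Reln cluster kept their call under each alternative that gave a value. Depth limits the members with few UMIs, Tgfb3, Ltbp1 outside the Dcn/Reln cluster and Tgfb2 outside the Dcn/Reln and cholangiocyte-like cells.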

Other observations

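Cholangiocyte-like cells, where Tgfb2 and Tgfb3 were called higher, also differed in the surrounding pathway genes, named here after their values were seen. Itgb6 and Itgav, which pair into the epithelial integrin that activates latent TGF-β, had 25.5 and 108 CPM in WT and 73.2 and 309 CPM in N-LKO. Ltbp2, a matrix protein of the Ltbp family, had 1 UMI in WT and 25 in N-LKO (log2 ratio 2.52, interval 0.47 to 8.44). Skil and Pmepa1, feedback inhibitors of the pathway, had 22.3 and 12.8 CPM in WT and 86.2 and 42.01 CPM in N-LKO. Id1 was lower, at 175 and 74.3 CPM in WT and N-LKO. Of 13 latency and activation partners, all measured, 4 were called higher and 0 lower by the counting interval, beside 6.34% and 6.53% of genes.

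Classes too small to compare gave these values. Neutrophil-like cells (104 in WT and 722 in N-LKO) had 133 CPM of Tgfbr1 (79.9 to 207) in WT and 239 CPM (211 to 270.0) in N-LKO, and 97.8 and 91.9 CPM of Tgfb1. Plasma-like cells (99 and 269) had 181 and 161 CPM of Tgfbr1 with overlapping intervals. The 78 mesothelial-like cells of N-LKO had 114 CPM of Tgfb2 (62.4 to 192), 97.9 CPM of Ltbp1 and 269 CPM of Tgfbr3.

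In a cluster that held markers of both macrophages and endothelial cells (582 and 1405 droplets), Tgfbr1 had 209 and 355 CPM in WT and N-LKO and Tgfbr3 122 and 107 CPM. In one with markers of T/NK cells and macrophages (154 and 759 droplets), Tgfbr1 had 242 and 419 CPM.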
